A study of Mus musculus with 28 samples.

Results

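The expression of 51 genes that build and run the primary cilium was followed through 7 lines of mIMCD-3 cells, a mouse epithelial line of collecting duct origin, from the inner medulla. Members were taken by symbol from the 45706 gene identifiers of the expression tables, and every one of the 51 was found. They comprised 11 genes of the intraflagellar transport complex B (IFT-B), 6 of IFT-A, 4 motor subunits, 7 subunits of the BBSome, 3 BBS chaperonins, 3 small GTPases of the ARL family, 15 genes of the transition zone and inversin compartment, and 2 genes of membrane cargo and lipids.

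The lines were polyclonal WT cells, the monoclonal line WT5 grown from a sorted single cell, and subclones 1 to 5, which were sorted from WT5 and expanded again, with 4 libraries per line and 28 in all. All lines were wild-type without any further agent, were kept in DMEM:F12 with 10% serum, and gave total RNA 4 days after they had reached confluency. WT5 was picked among sorted clones that carried cilia, so that it is 1 clone chosen with cilia in view, and each subclone is 1 clone of that clone. The replicates of a line are called biological in the methods and technical in a legend, and where they are technical the p-values below measure only the spread between these libraries. Reads were 50 bp and single-end for polyclonal cells but 150 bp and paired-end for WT5, and were made at another time, so that sequencing run and line cannot be told apart in that comparison. The deposited unit is TPM, a transcript abundance scaled by gene length and to a fixed total per library, which keeps no read depth. A lower level may mean fewer cells with the transcript or less transcript in each cell, which cannot be told apart in bulk RNA.

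The primary cilium is a solitary protrusion of the apical membrane that grows from the basal body and senses flow and ligands in kidney tubules. IFT-B with the kinesin-II motor carries cargo towards the tip, IFT-A with dynein-2 carries it back, the BBSome moves membrane proteins out of the cilium, and the transition zone at the base gates what enters and leaves. Variants in genes of all these modules cause ciliopathies such as Bardet-Biedl, Joubert and Meckel syndromes, in which the kidney is often affected.

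RFX transcription factors are known to bind X-box motifs in promoters of ciliary genes. RefSeq promoters (GRCm38.p6, from 250 bases before to 50 bases after a gene start) were matched for 46 of the 51 members, and were not used for Dync2li1, Ift80, Ift81, Ift122 and Tmem67. The letters GTTGCC, on either strand, stood in the promoters of 21 of the 46 members (45.7%) and of 14.1% of all 27025 genes. The looser letters GTTNCC, which include the former, stood in 39 of the 46 (84.8%) and in 48.8% of all genes. A paired arrangement of GTTNCC, 0 to 3 further bases and GGNAAC, which is its own reverse complement, was found in 6 members (13.0%) and in 0.936% of all genes. By windows rather than genes, of which some genes have several, the paired letters stood in 11.3% of member windows and in 0.804% of all 32851 windows. These 6 stretches of 30 bases are shown with the paired letters in capitals, because Tctn1 and Mks1 among them return as the members with the widest differences between lines, while Ahi1 returns among the subclones. By the test given below, Ift57 among these 6 genes was called lower in WT5 than in polyclonal cells, with means of 40.9 and 51.9 TPM. Tctn3 was called higher, and Bbs7 and Ahi1 were not called. Whether the letters go with the direction of a difference was not tested. A match is a description of these letters and not a site that was shown to be bound.
Tctn1, chr5:122264411-122264440, minus strand: gcgctaggctgtgactGTTGCCCGGGCAAC
Mks1, chr11:87853183-87853212, plus strand: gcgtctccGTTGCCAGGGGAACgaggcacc
Ahi1, chr10:20952560-20952589, plus strand: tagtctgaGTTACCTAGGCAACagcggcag
Bbs7, chr3:36613489-36613518, minus strand: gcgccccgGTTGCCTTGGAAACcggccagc
Ift57, chr16:49699226-49699255, plus strand: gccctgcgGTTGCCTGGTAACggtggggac
Tctn3, chr19:40612350-40612379, minus strand: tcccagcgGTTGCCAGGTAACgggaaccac

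Counted from the gene start, the paired letters began at position -24 in Mks1, -60 in Ift57, -121 in Bbs7 and -140 in Tctn3, and after the start at 22 in Ahi1 and 37 in Tctn1. Cep290, also higher in WT5 than in polyclonal cells, held GTTNCC in the reverse direction at position -224 and no GTTGCC. The promoter of Wdr19, called higher in WT5, and those of Arl6, Bbs2, Bbs12, Inpp5e and Ttc8 held no GTTNCC, while those of Ift22, Ift43, Ift74 and Ift140, called lower, held it. For Bbs9, the only member that fell more than 2-fold between polyclonal cells and WT5, the 250 bases before the start (chr9:22475465-22475714, plus strand) hold no GTTNCC on either strand.
Bbs9: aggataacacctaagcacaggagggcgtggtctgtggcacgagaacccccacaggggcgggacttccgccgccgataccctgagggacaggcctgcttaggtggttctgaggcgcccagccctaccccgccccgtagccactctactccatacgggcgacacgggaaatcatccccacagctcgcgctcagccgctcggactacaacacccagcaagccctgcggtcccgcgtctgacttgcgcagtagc
For Kif3b, with the widest increase outside the transition zone, the same stretch (chr2:153291166-153291415, plus strand) holds GTTNCC in the reverse direction, in capitals.
Kif3b: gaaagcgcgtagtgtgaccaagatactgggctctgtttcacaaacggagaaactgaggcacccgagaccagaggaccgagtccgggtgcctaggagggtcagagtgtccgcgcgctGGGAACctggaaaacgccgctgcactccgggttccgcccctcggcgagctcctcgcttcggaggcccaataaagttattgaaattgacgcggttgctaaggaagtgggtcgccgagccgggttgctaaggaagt

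The labelled tissue was checked against 16 markers of collecting duct and epithelium. Epcam and Krt8, general epithelial genes, were high in polyclonal cells (means of 507 and 360 TPM) and in WT5 (603 and 1010 TPM), whereas Aqp2, the water channel that defines principal cells, was listed at 0 in every library. Avpr2, the vasopressin receptor, was at 10.6 ± 0.583 TPM (SD, n = 4) in polyclonal cells and at 0.06 TPM in WT5, and Gata3, a collecting duct transcription factor, at 4.08 and 0.04 TPM. In the other direction, Cdh16, the kidney-specific cadherin, was at 30.9 ± 1.58 and 89.2 ± 1.76 TPM, and the 16 genes summed to between 1800 and 2090 TPM in polyclonal cells and between 3160 and 3250 TPM in WT5. The 17 markers of other kidney cell types summed to between 3.94 and 4.67 TPM in the polyclonal libraries and between 10.1 and 12.1 TPM in WT5, with 7 of the 17 listed at 0 in both, and to between 18.7 and 25.6 TPM in subclone 5, where 6 were listed at 0. The summed proliferation markers were at 2150 to 2350 TPM in polyclonal cells and 2750 to 2810 TPM in WT5. The part of these differences in the results below was not tested. Replicate 2 of subclone 3 and replicate 1 of subclone 5 stood apart from the other libraries of their line: they held the lowest value of the line for 35 and 37 of the 51 members, and for 63.4% and 70.3% of all genes whose mean was at least 1 TPM. Counts over all subclones and for subclones 3, 4 and 5 are therefore also given without 1 or the other. Among the members described below, Cep290, Nphp4, Invs, Tmem67, Bbs4 and Bbs12 overlap a gene on the opposite strand that was above 1 TPM in each line, and Ift80 overlaps pseudogenes on its own strand, so that their reads could be shared. For Bbs12, which shares 155 bases with the centrin gene Cetn4, the level of Cetn4 was also lower in WT5 (7.26 TPM) than in polyclonal cells (13.7 TPM).

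The mean of every member was above 1 TPM in every line, except that of Mks1 in polyclonal cells. Summed over the 51 genes, the level was 1333 ± 46.4 TPM in polyclonal cells, 1465 ± 15.5 TPM in WT5 and between 1369 and 1441 TPM as the mean of each subclone. Arl3, a GTPase that releases lipid-modified cargo in the cilium, was the most abundant with a mean of 161 TPM over the 7 lines, followed by the IFT-B genes Ift27 (76.7 TPM) and Ift20 (69.1 TPM). At the other end, Dync2h1, the heavy chain of dynein-2, had a mean of 2.05 TPM, Ahi1, a Joubert syndrome gene of the transition zone, 3.77 TPM, and Mks1 4.41 TPM. Subunits of 1 complex could lie far apart, as Dync2h1 and its partner light intermediate chain Dync2li1 did in polyclonal cells, with means of 1.58 ± 0.383 and 67.5 ± 3.56 TPM. The median coefficient of variation of the members within a line was lowest in WT5 (5.43%) and highest in subclones 3 and 5 (11.3% and 11.5%), where it was 5.14%, 11.5% and 11.4% for all genes whose mean was at least 1 TPM.

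**Figure D1:**
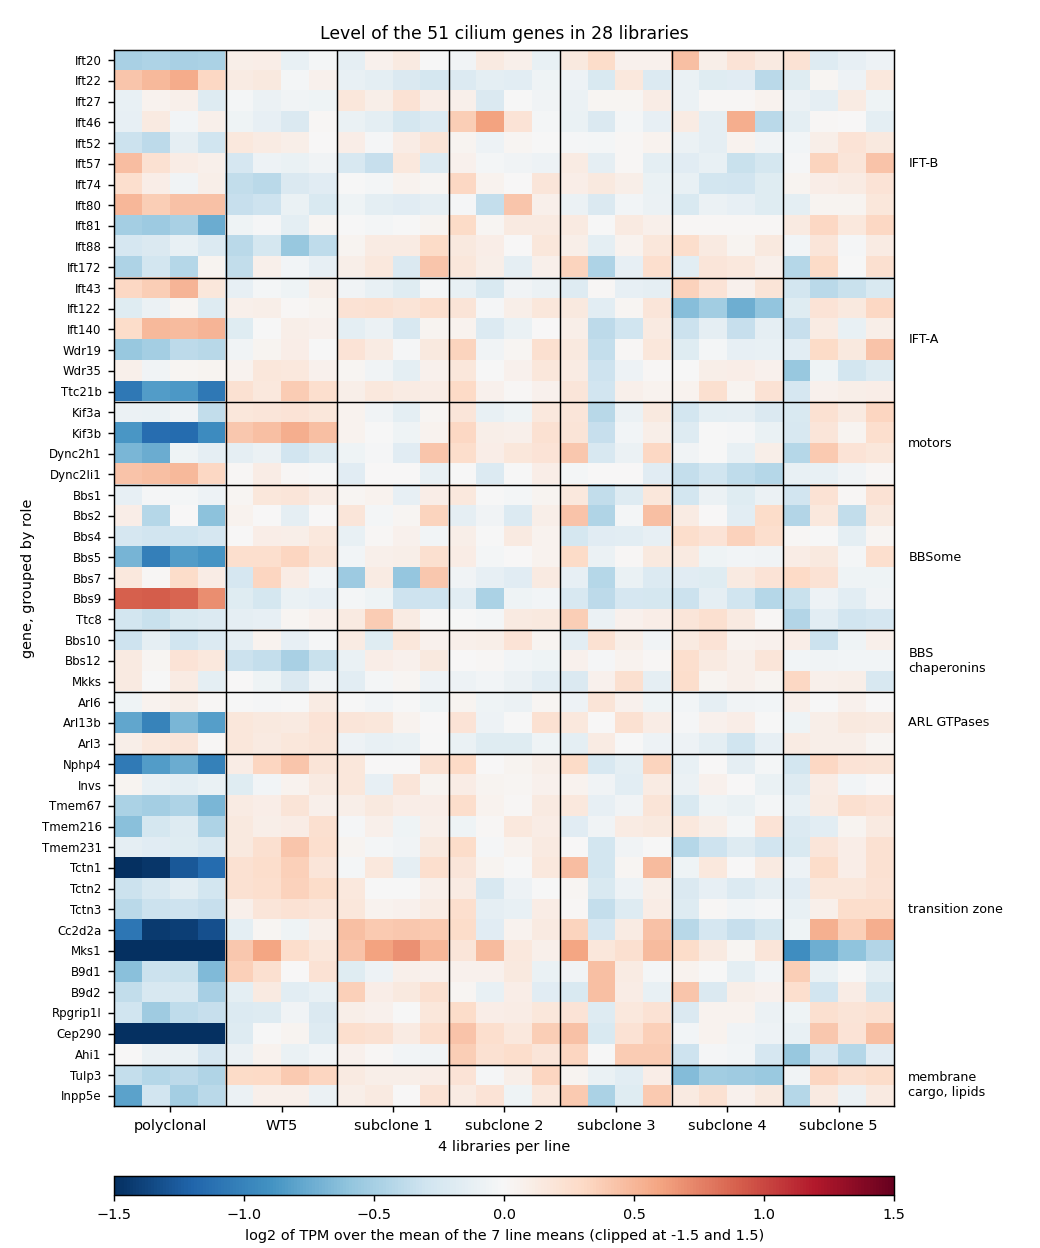
Log2 TPM of each of the 51 members in each of the 28 libraries, given relative to the mean of the 7 lines for that gene and clipped at the ends of the colour scale, with genes in rows ordered by role and libraries in columns ordered by line. The rows of Mks1 and Cep290 are darkest blue (low) in the 4 polyclonal libraries, most transition zone rows are lower in polyclonal cells than in WT5, and Ift122 and Tulp3 are low in the 4 libraries of subclone 4.

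The comparison of WT5 with polyclonal WT cells asked how far a monoclonal line departs from the population it came from. Mks1 was nearly silent in polyclonal cells, and several other transition zone genes were 2 to 3 times higher in WT5, while Bbs9 and Ift80 were lower. Log2 TPM was z-score transformed within each library, so that differences are relative to the other genes of the library, and a gene was called at an adjusted p below 0.01 by limma with Benjamini-Hochberg adjustment over the 13723 genes tested. Of the 51 members 50 were tested, since Mks1 was listed at 0 in 1 polyclonal library, and 32 were called (64.0%), against 65.5% of all genes tested. Of these, 17 were higher in WT5 (34.0%, against 34.5% of all genes) and 15 lower (30%, against 30.9%). The share of members called was therefore close to that of genes in general. The median log2 TPM difference was 0.22 over the members and 0.24 over all genes tested. Without the z-score, which takes out this general shift, 31 members were called, of which 23 were higher and 8 lower, and 66.7% of all genes were called. More than 2-fold increases were called for 7 members (14.0%, against 16.4% of all genes) and a decrease of that size for Bbs9 alone (2.0%, against 8.85%). Of the 50 members tested, 0 had a z-score difference beyond 1, the size that the study asked for and that 5.43% of all genes passed, and the widest was 0.46, a difference that limma and the unequal-variance test share. Mks1, which was not among the 50, passed that size once low values were kept, as given below.

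Counts are given by role, and roles were not tested against each other. In the transition zone, 9 of the 14 genes tested were higher and 0 lower, with a median log2 difference of 0.53 and a range of 0.06 to 1.65. Invs and Ahi1 were the 2 with a lower z-score at an unadjusted p below 0.05 by limma, and the unequal-variance test called 7 higher and 0 lower. The summed level of its 15 genes rose from 179 ± 11.3 TPM in polyclonal cells to 284 ± 2.39 TPM in WT5, and their libraries did not overlap. Without the z-score 10 of the 14 were higher and 0 lower, and among genes with a mean of at least 1 TPM 9 were higher and 2 lower. In IFT-B, 2 of 11 were higher and 7 lower, with a median of -0.11, but the lower calls depended on the scale, since 3 were higher and 3 lower without the z-score. The sums of IFT-B were 472 ± 8.86 TPM and 453 ± 7.43 TPM. IFT-A had 2 of 6 higher and 2 lower, the motors 1 of 4 each way, the BBSome 1 of 7 each way, the chaperonins 2 of 3 lower, and the ARL GTPases 1 of 3 higher and 2 lower. The lower calls of Arl6, Arl3 and Ift27 rest on the z-score alone, with log2 TPM differences of 0.00 for Arl6, 0.06 for Arl3 and -0.01 for Ift27.

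**Figure D2:**
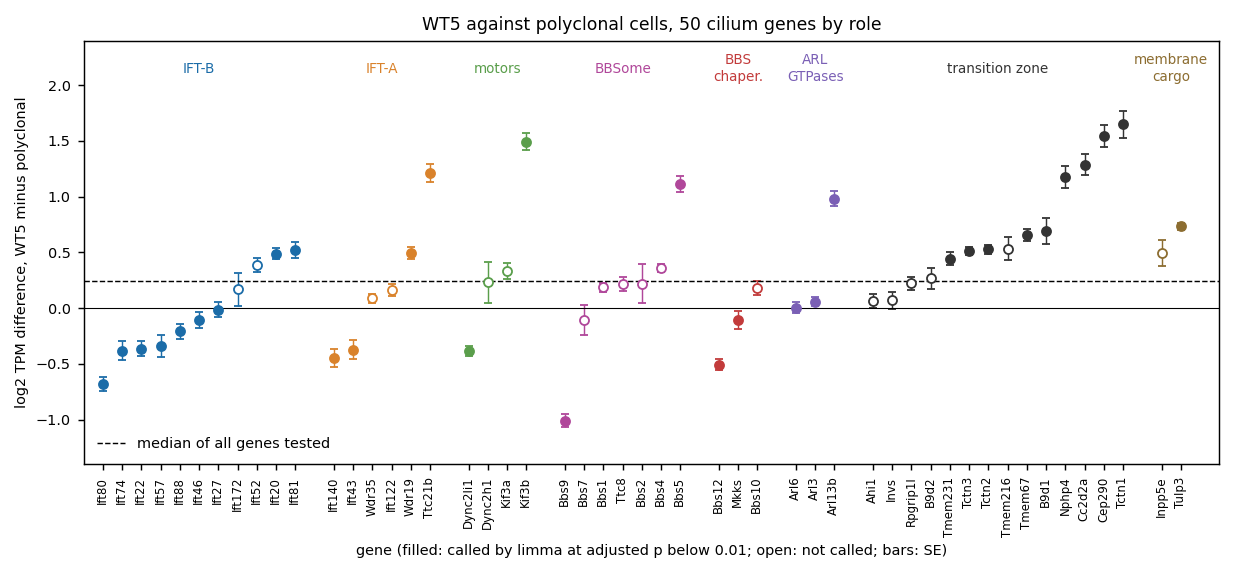
Log2 TPM difference of each member between WT5 and polyclonal WT cells, by role, with 1 point per gene, filled where the gene was called by limma at an adjusted p below 0.01, bars of 1 SE and a dashed line at the median of all genes tested (0.24), without Mks1, which was not tested. Transition zone genes lie between 0.06 and 1.65, and Bbs9 is the only point near -1.

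Mks1 encodes a core protein of the B9 complex of the transition zone and is mutated in Meckel syndrome. It lies at chr11:87853215-87863803 on the plus strand of GRCm38, overlaps no annotated gene and shares no stretch of 50 bases with another gene. Polyclonal replicates 1 to 4 had 0.07, 0.08, 0.03 and 0 TPM, and the WT5 libraries had 5.85, 6.68, 5.3 and 4.98 TPM. Every polyclonal library was thus below 0.1 TPM and every WT5 library near or above 5 TPM, without overlap. An exact two-sided permutation test gave p = 0.0286, the smallest that 4 against 4 libraries allow. On log2(TPM + 0.1) without a filter on low values, a scale that understates the change of low genes, the difference was 5.35 and the z-score difference 1.45, with an adjusted p of 3.76e-07 by limma. Of the expressed genes on either side, Supt4a had means of 233 and 205 TPM in polyclonal cells and WT5, and Dynll2 of 159 and 121 TPM, so that neither was near silent in polyclonal cells. All subclones kept Mks1 above 2 TPM. Mks1 had the widest range of all members over the 7 lines, and its promoter is among the 6 with the paired letters shown above.

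Among the other transition zone genes, Tctn1, which encodes a tectonic protein of the same complex, had the widest difference. Its libraries were at 6.44, 7.52, 8.53 and 9.23 TPM in polyclonal cells and at 24.18, 24.69, 26.47 and 23.29 TPM in WT5. This was a 3.13-fold increase (z-score difference of 0.46, SE 0.0351) with an adjusted p of 1.03e-05 by limma with Benjamini-Hochberg adjustment. Cep290, a large protein that links membrane and microtubules at the base, was at 2.2, 1.73, 2.07 and 2.17 TPM in polyclonal cells and at 5.51, 6.3, 6.49 and 5.53 TPM in WT5. It rose 2.92-fold (z-score difference of 0.422, SE 0.0257, adjusted p of 3.05e-06 by limma). Cc2d2a, another subunit of the gate, rose 2.44-fold, from 4.23, 3.32, 3.37 and 3.59 TPM to 8.13, 9.16, 8.57 and 9.47 TPM. Nphp4, a nephrocystin whose loss causes nephronophthisis, rose 2.26-fold, from 3.42, 3.98, 4.25 and 3.54 TPM to 7.69, 8.93, 9.49 and 8.17 TPM. For none of these 4 genes did a polyclonal library reach the lowest WT5 library, but a lack of overlap was a condition for choosing them. The same condition chose the members given with every library for the motors, IFT-A, IFT-B and the BBSome, other than Tulp3. Their adjusted p-values by limma were at most 2.87e-05. Tmem67, Tctn2, Tctn3, B9d1 and Tmem231 were also called higher, with log2 differences between 0.44 and 0.69.

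Of the motors, Kif3b, a motor subunit of kinesin-II, was at 10.31, 8.52, 8.48 and 9.81 TPM in polyclonal cells and at 24.99, 25.76, 27.52 and 25.88 TPM in WT5. It rose 2.81-fold (z-score difference of 0.411, SE 0.0245, adjusted p of 2.73e-06 by limma), whereas its partner Kif3a was not called (log2 difference of 0.33, adjusted p of 0.12). The dynein-2 subunits did not move with it. Dync2li1 was at 67.83, 69.08, 70.6 and 62.43 TPM in polyclonal cells and at 51.21, 54.42, 50.95 and 50.2 TPM in WT5, a ratio of 0.766 (adjusted p of 9.38e-06 by limma), and Dync2h1 was not called, with means of 1.58 ± 0.383 and 1.82 ± 0.108 TPM. The libraries of Kif3b and of Dync2li1 did not overlap between the lines, which the choice of these genes required.

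In IFT-A, which also delivers membrane receptors, Ttc21b rose while Ift43 and Ift140 fell. Ttc21b was at 3.13, 3.69, 3.62 and 3.14 TPM in polyclonal cells and at 7.69, 7.32, 8.59 and 7.86 TPM in WT5, a 2.32-fold increase (adjusted p of 1.52e-05 by limma). Ift140 was at 18.31, 21.2, 20.98 and 21.38 TPM and at 13.33, 14.97, 16.03 and 15.77 TPM, a ratio of 0.734 (adjusted p of 7.16e-05). Ift43 was at 72.53, 75.47, 83.2 and 65.32 TPM and at 53.55, 57.04, 55.78 and 61.94 TPM, a ratio of 0.772 (adjusted p of 0.000113). The lines stayed apart for all 3, which their choice required. Ift43 left only a narrow gap between its lowest polyclonal and its highest WT5 library. Tulp3, the adaptor that couples IFT-A to receptors bound for the cilium, rose 1.66-fold, from 20.8, 19.8, 20.25 and 19.46 TPM to 32.48, 32.81, 35 and 33.42 TPM (adjusted p of 7.02e-06 by limma).

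Within IFT-B the widest decrease was that of Ift80, a peripheral subunit mutated in Jeune syndrome. Its libraries were at 70.33, 64.44, 67.65 and 67.69 TPM in polyclonal cells and at 39.27, 40.23, 46.63 and 42.63 TPM in WT5, a ratio of 0.624 (adjusted p of 5.16e-06 by limma). Ift74, which binds tubulin together with Ift81, was at 30.02, 26.89, 24.18 and 26.7 TPM and at 19.52, 19.03, 21.67 and 22.37 TPM, a ratio of 0.767 (adjusted p of 0.000414). Ift22, a small GTPase of the complex, was at 53.89, 56.83, 59.39 and 50.07 TPM and at 44.26, 44.72, 39.68 and 42.26 TPM, a ratio of 0.777 (adjusted p of 7.12e-05). No WT5 library reached the polyclonal range for these genes, which was a condition for choosing them. Ift81 and Ift20 were the 2 IFT-B genes called higher, at 1.43-fold and 1.4-fold, so that Ift81 and its tubulin-binding partner Ift74 were called in opposite directions.

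The BBSome subunits Bbs5 and Bbs9 also moved apart. Bbs5, which binds phosphoinositides, was at 11.3, 9.03, 10.27 and 9.91 TPM in polyclonal cells and at 21.8, 21.9, 23 and 20.92 TPM in WT5, a 2.17-fold increase (adjusted p of 8.52e-06 by limma). Bbs9, a scaffold subunit, was at 18.07, 18.23, 17.72 and 15.78 TPM and at 8.53, 8.1, 9.07 and 8.92 TPM, a ratio of 0.496 (z-score difference of -0.398, SE 0.0197, adjusted p of 1.05e-06). The other 5 BBSome genes were not called, with log2 differences between -0.10 and 0.36. Bbs12, a chaperonin-like protein needed to assemble the BBSome, was at 19.84, 18.44, 20.87 and 20.08 TPM and at 14.45, 14.11, 12.92 and 14.29 TPM, a ratio of 0.704 (adjusted p of 1.17e-05 by limma). Arl13b, a GTPase of the ciliary membrane that is often used to stain cilia, was at 16.76, 14.34, 17.83 and 16.12 TPM and at 32.27, 31.59, 31.34 and 33.01 TPM, a 1.98-fold increase (adjusted p of 1.16e-05). For each of the 4 genes the lines were fully separated, but they were chosen on that condition.

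**Figure D3:**
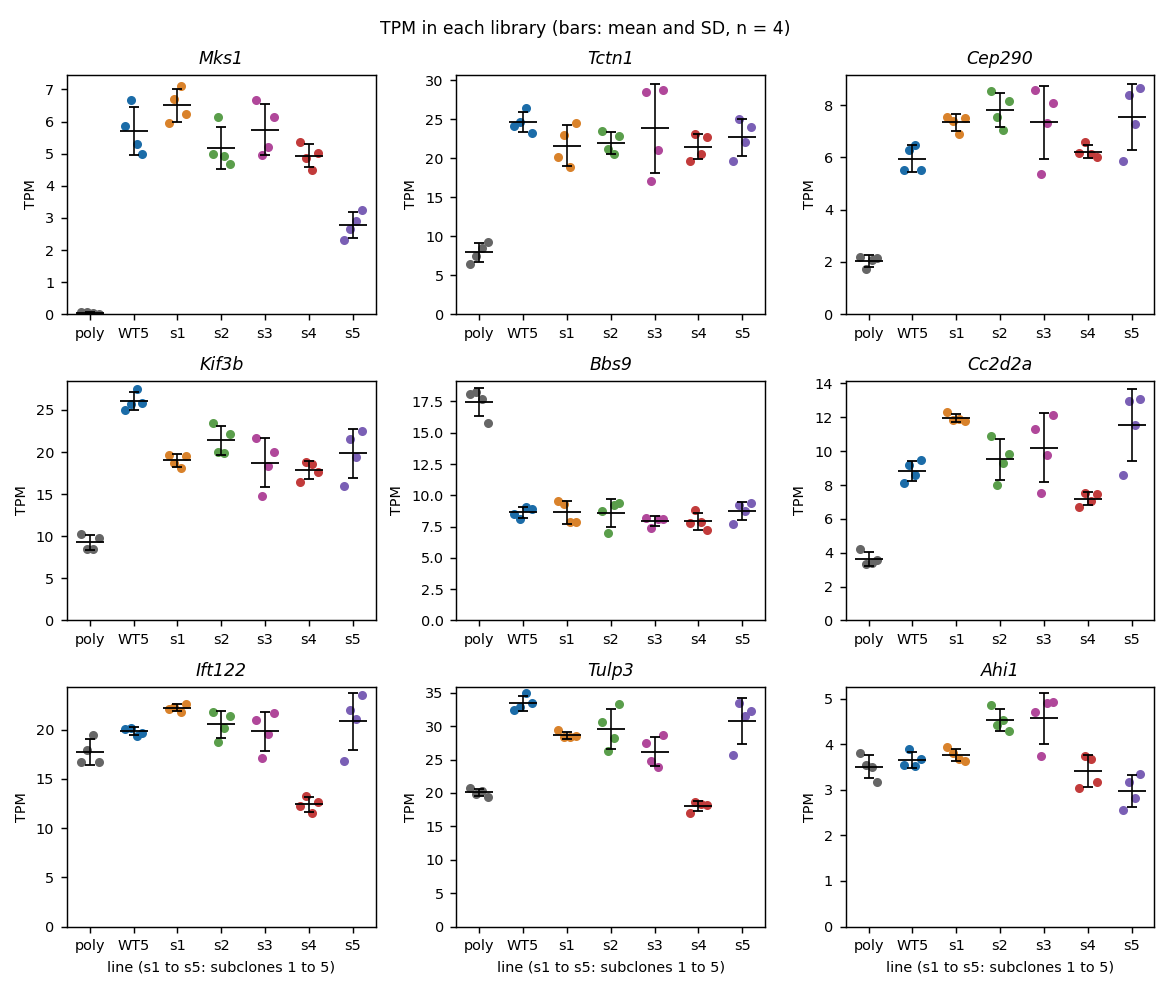
TPM of selected members in every library, with 1 panel per gene, the 7 lines along the horizontal axis, 1 point per library, bars for the mean and SD (n = 4) and a vertical axis that starts at 0. Mks1 lies at or below 0.08 TPM in polyclonal cells and at 2.32 to 3.25 TPM in subclone 5, and subclone 4 lies below all other subclones for Ift122 and Tulp3.

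Genes around the members were described from lists fixed by symbol. Of all genes tested, 65.5% were called, 34.5% higher in WT5 and 30.9% lower, and their median log2 difference was 0.24. The counts of these short lists stand against those shares. Of the 18 genes of basal body and ciliogenesis tested, 12 were called, 10 of them higher in WT5, with a median log2 difference of 0.67. Odf2, a component of the appendages that anchor the basal body, rose from 14.7 to 60.9 TPM. Of 13 Hedgehog pathway genes, a pathway that runs through the cilium, 8 were higher and 3 lower (median of 0.76), and the transcription factor Gli2 rose from 0.103 to 1.17 TPM. Of 17 other transition zone and inversin compartment genes, 5 were higher and 1 lower (median of 0.45). Of 16 other IFT, BBSome and motor genes, 3 were higher and 2 lower (median of 0.17), with Ttc30a1, an IFT-B gene, up from 2.23 to 7.19 TPM. Kifap3, which joins Kif3a and Kif3b to cargo, fell by 0.52 on the log2 scale. Of the 5 polycystin and ciliary membrane genes, 3 were higher and 1 lower, and the polycystic kidney genes Pkd1 (from 2.57 to 8.66 TPM) and Pkhd1 (from 2.19 to 13.8 TPM) were among the former. Of 8 genes of cilium disassembly, 5 were higher and 1 lower, and the latter was Nedd9, the activator of Aurora A kinase, which fell from 17.1 to 2.4 TPM.

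RFX and related transcription factors did not share a direction. Of 7 RFX and multiciliated cell regulators tested, 3 were higher and 2 lower. Foxj1, the factor of motile cilia, rose from 12.9 ± 1.14 to 47 ± 3.02 TPM (adjusted p of 4.87e-07 by limma) and Rfx2 from 3.85 to 9.13 TPM (adjusted p of 7.2e-06), while Rfx3 fell from 7.58 to 3.93 TPM (adjusted p of 4e-05). Of the 7 motile cilium genes tested 1 was called, and of 7 tubulin modification genes 4 were higher. Proliferation genes were called in 10 of 12, with 7 higher, and collecting duct and epithelial genes in 10 of 13, with 4 higher. Of the other kidney cell type markers, 3 could be tested and 2 were higher. These lists were read against the 65.5% of all genes called, and their members were not tested as sets.

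Differences among the 5 subclones were tested by a moderated F test of limma over their 20 libraries, on 13860 genes. Of the 51 members, 18 were called (35.3%), against 25.0% of all genes. The levels still lay close together: the means of the subclones differed by more than 1 on the log2 scale for Mks1 alone (1.96% of members, against 5.44% of all genes). Subclone 4 held the lowest mean for 11 of the 18 and subclone 5 for 5, namely Mks1, Ahi1, Ift43, Wdr35 and Ttc8. By adjusted p, the first were Ift122, from 12.4 TPM in subclone 4 to 22.2 TPM in subclone 1 (adjusted p of 4.35e-09 by limma), Tulp3, from 18.1 to 30.8 TPM (3.06e-08), and Mks1, from 2.78 to 6.5 TPM (5.25e-07). They were followed by Ahi1, from 2.97 TPM in subclone 5 to 4.57 TPM in subclone 3 (9.38e-06), and Cc2d2a, from 7.19 TPM in subclone 4 to 12 TPM in subclone 1 (2.93e-05). Without replicate 2 of subclone 3 the F test called 20 members, and without replicate 1 of subclone 5 it called 18. The share above that of all genes depended on the test: 9 members were called by the unequal-variance test (17.6%, against 15.6% of all genes) and 10 without the z-score (19.6%, against 18.0%).

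Set against the other 4 subclones, the 3 subclones other than 4 and 5 had few calls. Subclone 1 had 4 (7.84%, against 4.46% of all genes), with Mks1, Ift122 and Cc2d2a higher (2.65% of all genes) and Ift81 lower (1.81%). Subclone 2 had 2 (3.92%, against 6.04%), Ahi1 and Tulp3, both higher (3.22% of all genes higher and 2.82% lower). In subclone 3, Ahi1 alone was called (1.96%, against 4.91%) and was higher (2.03% of all genes higher and 2.88% lower), and 2 members were called without its replicate 2. At an unadjusted p below 0.05 by limma, 0 further members were lower in subclone 2 and 2 in subclone 3, and the unequal-variance test called 0 lower in each. None of these calls had libraries clear of those of all other subclones. The group they were set against included subclone 4, lowest for Ift122, Cc2d2a and Tulp3, and subclone 5, lowest for Mks1 and Ahi1. Ahi1 was at 4.86, 4.43, 4.54 and 4.28 TPM in subclone 2, at 4.7, 3.75, 4.91 and 4.93 TPM in subclone 3 and at 2.55, 3.18, 2.81 and 3.34 TPM in subclone 5.

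Subclone 4 had 14 calls (27.5%, against 18.7% of all genes), 12 of them lower (23.5%, against 9.92%) and 2 higher (3.92%, against 8.77%), and 16 without replicate 2 of subclone 3 or without replicate 1 of subclone 5. The calls spanned IFT-A, IFT-B, dynein-2 and the transition zone, where 7 of 15 genes were lower and 0 higher. The number higher was also 0 at an unadjusted p below 0.05 by limma and among calls by the unequal-variance test. Ift122, an IFT-A core subunit, was at 12.21, 13.24, 11.49 and 12.62 TPM in subclone 4 and between 16.77 and 23.54 TPM in the 16 libraries of the other subclones. The ratio was 0.596 (z-score difference of -0.259, SE 0.0136, adjusted p of 3.82e-10 by limma). Tulp3 was at 17, 18.61, 18.39 and 18.2 TPM against 23.85 to 33.46 TPM elsewhere, a ratio of 0.629 (adjusted p of 3.11e-09). Both were without overlap, which their choice required, and both lie on chromosome 6, whose genes had a median log2 difference of -0.32 in subclone 4, as described below. Of the other IFT-A genes, Wdr19 was also called lower, while Ift140, Wdr35 and Ttc21b were not called. Ift43, another IFT-A subunit, was the reverse of Ift122, at 74.12, 67.29, 60.76 and 66.45 TPM against 43.92 to 59.17 TPM, 1.28 times higher (adjusted p of 0.000268 by limma). It was not called by the unequal-variance test (adjusted p of 0.0256). Bbs4, a BBSome subunit, was at 12.23, 11.72, 12.96 and 12.14 TPM against 8.5 to 11.14 TPM, 1.24 times higher (adjusted p of 0.00246), but was no longer called without replicate 1 or 3 of subclone 4, with adjusted p-values up to 0.0164. Cc2d2a, at 6.71, 7.53, 7.07 and 7.45 TPM, was below all other libraries of the subclones in 3 of its 4 libraries (7.51 to 13.11 TPM elsewhere), with a ratio of 0.674 (adjusted p of 7.17e-06).

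Subclone 5 had 12 calls (23.5%, against 14.7% of all genes), 7 higher (13.7%, against 7.1%) and 5 lower (9.8%, against 7.64%), and 13 without its replicate 1. Mks1 was at 2.32, 2.65, 2.91 and 3.25 TPM in subclone 5 and between 4.49 and 7.11 TPM in the other subclones. The ratio was 0.499 (z-score difference of -0.32, SE 0.0263, adjusted p of 1.46e-07 by limma). No library overlapped, which was a condition for naming a gene in this contrast. The mean of subclone 5 (2.78 TPM) was thus below those of WT5 and the other subclones, but far above that of polyclonal cells (0.045 TPM). Values of polyclonal cells and WT5 came from a separate table. Ttc8, the BBSome subunit also known as BBS8, was at 18.1, 22.06, 20.25 and 20.71 TPM against 23.22 to 32.18 TPM, a ratio of 0.755 (adjusted p of 0.000488). Ahi1, Wdr35 and Ift43 were lower by 0.45, 0.29 and 0.28 on the log2 scale. Among the higher members was Ift57, an IFT-B gene (log2 difference of 0.34), with a mean of 52.5 TPM in subclone 5 and at most 43.7 TPM in the others. Tulp3 (0.28) and Cc2d2a (0.26) were called higher against a group that includes the low subclone 4, and their means in subclone 5 (30.8 and 11.5 TPM) lay close to those in subclone 1 (28.6 and 12 TPM). Ift122, Tmem231 and Tctn2, also called higher, had their lowest mean in subclone 4 too. The highest means of Ift122 and Tmem231 were not in subclone 5 but in subclone 1 (22.2 TPM) and subclone 2 (16.5 TPM).

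Against WT5 itself, whose 4 libraries and table were shared by all of these comparisons, subclones 1 to 5 had 11, 12, 7, 15 and 11 members called, or 21.6%, 23.5%, 13.7%, 29.4% and 21.6%. The shares over all genes were 26.3%, 26.0%, 19.5%, 37.3% and 21.9%. Members were higher in 8, 8, 3, 4 and 8 cases, against 12.7%, 13.4%, 8.65%, 18.2% and 10.2% of all genes, and lower in 3, 4, 4, 11 and 3, against 13.6%, 12.6%, 10.9%, 19.2% and 11.7%. Subclone 3 had 6 members called without its replicate 2, and subclone 5 had 13 without its replicate 1. TPM of WT5 and of the subclones came from separate tables, and the subclones were expanded after sorting before their RNA was taken. A difference of culture or sequencing run that goes with the table cannot be told apart here from one between WT5 and its subclones. The same 3 genes were called in each of the 5 subclones. Ift88, an IFT-B core subunit known from the polycystic orpk mouse, was at 10.16, 11.19, 9.04 and 10.3 TPM in WT5 and between 12.14 and 16.43 TPM in the subclones, with log2 differences of 0.45 to 0.55. Bbs12 was at 14.45, 14.11, 12.92 and 14.29 TPM in WT5 and between 16.87 and 21.52 TPM in the subclones, with log2 differences of 0.33 to 0.54. Both genes had been lower in WT5 than in polyclonal cells. Kif3b was lower in the subclones, between 14.83 and 23.48 TPM, than in the WT5 libraries, of which the lowest was at 24.99 TPM, with log2 differences of -0.54 to -0.29. For these genes, the WT5 libraries therefore stood outside the range of all its subclones, which the condition for naming them set in part. Since all 5 comparisons share WT5, this count is not 5 separate observations. How many of all genes were called in all 5 subclones was not counted, so these 3 genes were not compared with genes in general. Rpgrip1l, a scaffold of the transition zone, was higher in 4 of 5. With the unequal-variance test named in the study's methods, Ift88 was called in 3 of 5 subclones (adjusted p up to 0.0229), Bbs12 in 4 (up to 0.012) and Kif3b in 2 (up to 0.0394).

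The calls of Kif3b against WT5 in subclones 2, 3 and 5 were lost with any of 6 or 7 libraries left out in turn, with adjusted p-values up to 0.0271, and by the unequal-variance test, with adjusted p-values up to 0.0394. Tctn2 in subclone 2, Tmem231 in subclone 3 and Tulp3 in subclone 1 were lost with any of 7, 8 and 6 libraries left out. Their adjusted p-values by limma then went up to 0.0274. By the unequal-variance test, Tctn2 (adjusted p of 0.0405) and Tmem231 (0.0196) were also lost, while Tulp3 kept its call. The differences of subclone 5 for Mks1 (log2 difference of -1.04, adjusted p of 0.000534 by limma) and of subclone 4 for Tulp3 (-0.89, 5.52e-06) and Ift122 (-0.68, 3.77e-05) remained called with any of the libraries left out, but that of Ift122 did not when the genes around it were taken into account (adjusted p of 0.194 with their median taken out). Ift74 was higher than in WT5 in 3 subclones, and in subclones 2 and 5 its libraries, at 25.3 to 31.04 TPM, lay above the WT5 libraries, at 19.03 to 22.37 TPM.

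Several of these differences were shared with the surrounding chromosome. In WT5 against polyclonal cells, the median log2 difference over all genes of chromosome 2 was 0.63 and of chromosome 5 was 0.62, compared to 0.24 over all genes. The 6 members tested on chromosome 2, among them Kif3b, Ttc21b and Bbs5, had a median of 0.81, and the 7 on chromosome 5, among them Tctn1 and Cc2d2a, 0.52. Chromosome 3, which carries Ift80, Bbs7 and Bbs12, had a median of -0.18. The 50 genes nearest to Kif3b had a median of 0.72 and those nearest to Tctn1 0.64, less than the 1.49 and 1.65 of the genes themselves. Cep290 (neighbours at 0.18), Arl13b (0.01) and Nphp4 (0.25) rose without such a shift around them, and Bbs9 and Ift22 fell among neighbours that were higher by 0.40 and 0.82. Across the 50 members tested, the correlation of a member's difference with the median of its neighbours was r = 0.42, a description over genes that share libraries and chromosomes.

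In subclone 4 against the other subclones, all genes of chromosome 6 had a median log2 difference of -0.32 and those of chromosome 12 of 0.38. Over 5 consecutive blocks of genes, the medians of chromosome 6 were -0.18, 0.17, -0.55, -0.53 and -0.09, so that 1 block was higher, while those of chromosome 12 lay between 0.32 and 0.42. Ift122 (chr6:115853470-115926699) and Tulp3 (chr6:128321161-128355851) lie on the former, where their 50 neighbours had medians of -0.50 and -0.47, and Ift43 (chr12:86082541-86162459) lies on the latter, with neighbours at 0.38. In subclone 5, chromosome 12 had a median of -0.36, and its 3 members Ift43, Wdr35 and Ttc8 were all lower, by 0.28 to 0.41, next to neighbours at -0.35, -0.37 and -0.37. When the median of the neighbours was taken out of each library, a setting added after the data had been seen, Ift122 and Tulp3 kept a smaller difference in subclone 4 (z-score differences of -0.0876 and -0.0915, adjusted p of 0.000108 and 0.000285 by limma). Ift43 in subclone 4 and Ttc8 in subclone 5 no longer differed by the test (adjusted p of 0.87 and 0.8). Mks1 in subclone 5, with neighbours at -0.03, was called as before (adjusted p of 2.56e-07), and so were the named genes of WT5 against polyclonal cells other than Ift74 (adjusted p of 0.0665). The sizes of the latter changed, however. Ift80 kept a z-score difference of -0.0734 and Bbs12 of -0.11, against -0.3 to -0.278 and -0.244 to -0.22 with neighbours kept and libraries left out singly. Ift22 widened to -0.379, from -0.195 to -0.17. Cc2d2a in subclone 4 also moved without its neighbours, which were at 0.07.

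**Figure D4:**
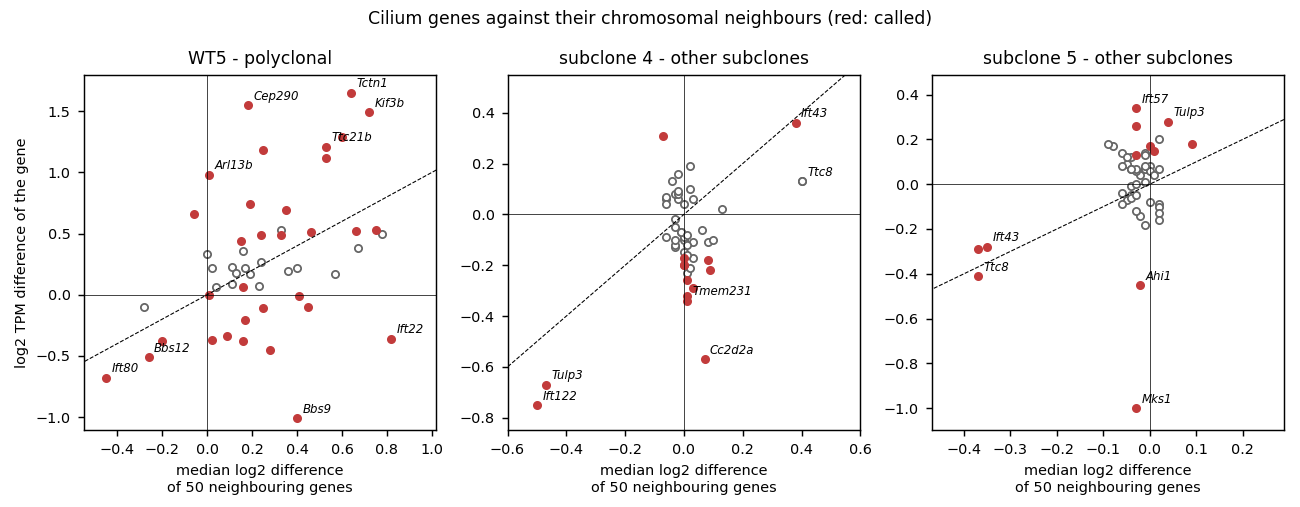
Log2 TPM difference of each member (vertical axis) against the median difference of its 50 nearest tested genes on the same chromosome (horizontal axis), for WT5 against polyclonal WT cells, subclone 4 against the other subclones and subclone 5 against the other subclones, with a line where both are equal. Ift43 in subclone 4 and Ttc8 in subclone 5 lie near the line, while Mks1 in subclone 5 lies far below it.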

How the data were processed

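RNA was sequenced by the authors from 28 libraries of 7 mIMCD-3 lines. The values deposited by the authors are TPM per gene, made with STAR 2.7.3a and RSEM 1.3.1 on GRCm38 with the Ensembl release 81 annotation. The labels also name CASAVA 1.8. One table holds polyclonal cells and WT5, the other the subclones. TPM keeps no read depth, so no counting error can be given and no count test was used. Values carry 2 decimals, and the strandedness of the counting is not given in the sources used here.

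Symbols were taken from GENCODE M21 for 45143 of 45706 identifiers. Of the members, 20 overlap another gene, 4 of them on the same strand, so that reads could be shared, and 11 share a 50-base stretch with another gene. No pseudocount was added to TPM before taking log2. Each library was then scaled to z-scores across the genes above 0 in all libraries of the comparison (13723 or 13860). Groups were compared by two-sided tests of limma 3.58.1 in R 4.3.3, with Benjamini-Hochberg adjustment over all genes tested and a call at an adjusted p below 0.01. On simulated data with 200 changed genes, limma recovered 89.0% of them with 1 false call for WT5 against polyclonal cells and 92.5% with 2 false calls among the subclones. Each changed gene was moved by 2 on the log2 scale, whereas tested members differed by at most 1.65 between WT5 and polyclonal cells. The simulation also changed far fewer genes than the 65.5% called in that comparison. Recovery and false calls at the sizes seen in the members were therefore not measured. Tables and figures were made with Python 3.11.15, pandas 2.3.3, numpy 2.4.6 and matplotlib 3.10.9.

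The members, the gene lists and the alternatives were chosen with earlier results of these data known. Members given with the value of each library were, between WT5 and polyclonal cells, up to 8 in each direction with the largest called z-score difference and libraries that do not overlap, and up to 2 in each direction for each subclone. For these, the lack of overlap was set by the choice and is not a result. The share of all genes without overlap was not counted. Members with a mean TPM below 1 in a line and the 3 highest and 3 lowest were added to these. Tulp3 in WT5 against polyclonal cells, Cc2d2a and other members named with called differences were chosen after their values were seen. A gene of the lists that the rule includes is not reported here. Alternatives were the unequal-variance test named in the methods, pseudocounts of 0.1 and 1, a mean TPM of at least 1, no filter, no z-score, an adjusted p below 0.05, the replicate number as a block, removal of length and GC trends, 24 libraries in one fit, and each library left out in turn.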

Additional observations from a re-analysis of the deposited data

Results flagged for a closer look

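In 203 groups of 4 libraries checked for the named members, 6 held a library whose gap to the nearest other exceeded Dixon's 95% critical share of the range of the line, and chance flags about 1 in 20 groups. Replicate 1 of subclone 5, which stood apart over all genes, was low for Tctn2, at 33.23 TPM against 41.75 to 43.26 TPM in the other libraries of the line, and for Ttc21b, at 5.53 TPM against 6.88 to 7.08 TPM. Replicate 2 of subclone 3, the other library that stood apart, was low for Bbs9, at 7.37 TPM against 8.11 to 8.21 TPM. Bbs5 was high in replicate 1 of subclone 4, at 20.18 TPM against 17.53 to 17.79 TPM. Ttc21b was high in replicate 1 of subclone 2, at 8.1 TPM against 6.68 to 6.87 TPM. Ift140 was low in replicate 1 of polyclonal cells, at 18.31 TPM against 20.98 to 21.38 TPM, which is still above every WT5 library. The reasons were not tested.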

How the results depend on the processing

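The count of 32 members called in WT5 against polyclonal cells stayed within 1.5 times under every alternative, and ranged from 25 to 29 when libraries were left out singly. Counts for the subclones moved more, and the cause was not tested. With the unequal-variance test, subclones 1, 2, 3 and 5 had 6, 6, 1 and 6 members called against WT5 (14.7%, 13.9%, 8.14% and 9.12% of all genes), those called by the F test were 9 (15.6% of all genes), and those called against the other subclones were 0 in subclone 3 and 3 in subclone 5 (1.64% and 5.25%). Without the z-score they were 3 in subclone 3 and 4 in subclone 5 against WT5 (16.4% and 16.3% of all genes), 10 by the F test (18.0%), and 1, 0, 8 and 6 in subclones 1, 2, 4 and 5 against the others (3.33%, 3.66%, 12.8% and 10.5%). At an adjusted p below 0.05 they were 18, 15 and 27 in subclones 1, 3 and 4 against WT5, and 6, 3, 22 and 19 in subclones 2, 3, 4 and 5 against the others. Without a filter and with a pseudocount of 0.1 they were 2 in subclone 3 against WT5 and 2 in subclone 1 against the others. With 24 libraries in one fit, subclone 3 had 13 against WT5. With neighbouring genes taken out, an alternative added after the data had been seen, subclones 1 and 5 had 2 and 7 against the others, and the difference of Ift43 in subclone 4 turned to -0.00664 (z-score). Where no share of all genes stands beside a count, here and in the paragraphs below, the count was not compared with genes in general. Such a count shows only how far the number of called members moves with the setting.

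With the replicate number as a block, the counts against WT5 were 1, 1, 0 and 5 in subclones 1, 2, 3 and 5 (7.5%, 8.61%, 4.83% and 8.87% of all genes), that of subclone 1 against the others 2, and that of WT5 against polyclonal cells 24. Deviations of libraries with the same number correlated between -0.328 and 0.153, with no pair of lines above 0.1 for all numbers, so the numbers were not taken to pair libraries. Under the block, Ift88, Bbs12 and Kif3b were called against WT5 in 3, 1 and 2 of the 5 subclones.

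With each library left out in turn, subclones 1 to 5 had 5 to 9, 5 to 9, 2 to 6, 13 to 16 and 7 to 13 members called against WT5, 2 to 4, 1 to 3, 0 to 2, 9 to 16 and 7 to 13 against the others, and the F test 12 to 20. The lowest counts against WT5 came without WT5 replicate 4 in subclone 1, without subclone 2 replicate 3, without any WT5 replicate or subclone 3 replicate 3, and without WT5 replicate 2 or 4 or subclone 5 replicate 3. Against the others they came without replicate 1 of subclone 4 (9) and replicate 2 of subclone 5 (7). Of 822 recomputed values of named members, 741 kept direction and call, 80 lost the call and 1 reversed. As TPM gives no depth, what depth limits could not be assessed.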
